A study of Carassius gibelio with 4 samples.

Results

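Of 56011 gene IDs measured in gibel carp liver, 57 stood at 10 FPKM or more in strain A on both diets and were listed at 0 in strain F on the rapeseed meal diet. They were selected on those values in 3 of the 4 libraries, so their 0 in strain F on rapeseed and their minimum level in strain A are how they were picked and are not results. The strain F fishmeal library played no part in the choice and serves as the check. FPKM counts sequenced fragments relative to transcript length and library size, here on the scale the authors deposited. The deposited values carry no stated unit and are called FPKM here by how they behave, as described under processing. The 57 members were 1.01% of the 5649 IDs at 10 FPKM or more in both strain A libraries. The other 5592, all above 0 in strain F on rapeseed, are the comparison IDs below.

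The study compared strains A and F of gibel carp (Carassius gibelio), on diets based on fishmeal or on rapeseed meal, in liver taken 8 hours after a last meal. Each of the 4 groups, which are strain A on fishmeal, strain A on rapeseed, strain F on fishmeal and strain F on rapeseed, had 1 library. The labels give no age, sex or number of fish per library, so no difference has a replicate check and no p-value is given. In whole liver, fewer cells of a type and less RNA per cell cannot be told apart.

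Gibel carp is a polyploid cyprinid in which many genes exist as several related copies, and it is known for gynogenesis, a mode of reproduction by which females can found clonal lines that differ in sequence from one another. IDs such as c33007_g1 are the kind given by programs that assemble transcripts from reads alone. There, IDs with the same c number come from sequences that overlapped during assembly. Such IDs are called siblings of one component here, as the naming implies, and they can be gene copies, alleles or pieces of one transcript. The files do not pair IDs with gene names or sequences, and 0 IDs matched the RefSeq gene table of the carGib1.2-hapl.c assembly. No member can therefore be given a function, and the liver label could not be checked against marker genes.

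The number of IDs above 0 was 44906 to 47839 in 3 libraries and 19015 in the remaining one, strain F on fishmeal. The lowest value above 0 was 0.011 to 0.027 FPKM in the 3 and 0.261 FPKM in that one. By low values that step in whole reads, 1 read in the strain F fishmeal library was estimated to be worth 54.2 times 1 read in the others. This is the median of the largest group, which held 93 of 204 usable IDs. The lowest values above 0 differ by a smaller ratio, so the estimate is rough. A 0 in that library is therefore weaker evidence than a 0 in strain F on rapeseed, and the share of zeros is given by level. Absolute depth, and so the number of reads behind a value, is not known.

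The highest members were well expressed in strain A. Where a pair of levels is given for a strain, fishmeal comes first and rapeseed second. c33007_g1 stood at 447 FPKM under fishmeal and 481 under rapeseed in strain A and was listed at 0 in both strain F libraries. It ranked 305 and 369 among all IDs of the strain A libraries. c35651_g6 stood at 242 FPKM under fishmeal and 362 under rapeseed in strain A and was at 0 in both strain F libraries. The next members followed at less than the level of c35651_g6 on either diet. c38470_g3 stood at 168 FPKM under fishmeal and 192 under rapeseed in strain A. c44620_g1, which has no sibling, had 159 and 195 FPKM in that order. c32944_g2 stood at 136 FPKM under fishmeal and 172 under rapeseed. All 3 of these were at 0 in both strain F libraries, of which only the 0 on fishmeal was not set by the choice. At a strain A mean of 100 FPKM or more, 1.60% of comparison IDs were at 0 there.

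Most members lay far lower. Over the 57, the level on fishmeal in strain A ran from 10.3 to 447 FPKM with a median of 28.7, and on rapeseed from 10.3 to 481 FPKM with a median of 28.9. The mean of both diets was under 20 FPKM in 23 members, 20 to 50 in 17, 50 to 100 in 8 and 100 or more in 9. The median of these means was 26.7 FPKM for the members and 26.6 FPKM for the comparison IDs, and 12.3% of members against 15.3% of comparison IDs stood at 100 FPKM or more on both diets. In median, and roughly in the share at 100 FPKM or more, the members thus lay near other IDs above the same minimum. The very highest levels held no member, since the top one ranked 305 on fishmeal and 369 on rapeseed in strain A. Together they held 0.251% of the summed level of strain A on fishmeal and 0.210% of that on rapeseed.

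**Figure D1:**
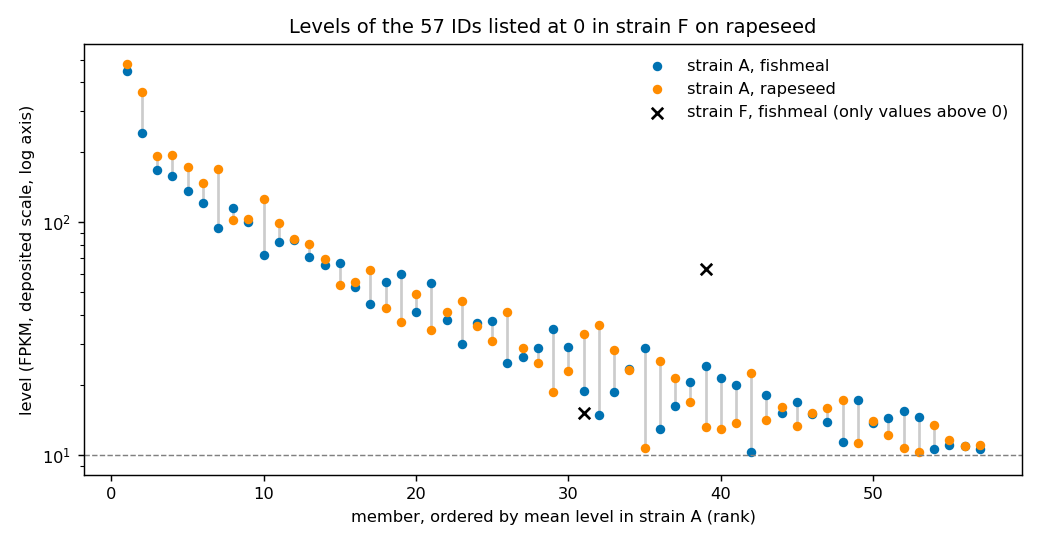
Level of each of the 57 members in FPKM on a log axis, ordered by mean level in strain A, with strain A on fishmeal in blue, strain A on rapeseed in orange and values above 0 in strain F on fishmeal as crosses. The dashed line is the minimum of 10 FPKM in the rule, and 2 members carry a cross; the other 55 were at 0 in both strain F libraries.

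The edges of the rule were close to other IDs. c36685_g1 was just inside, at 14.6 FPKM under fishmeal and 10.3 under rapeseed in strain A, as was c36594_g7 at 10.3 and 22.4 FPKM. c36485_g1 (20.1 and 9.84 FPKM) and c35146_g1 (25.8 and 9.81 FPKM) were at 0 in both strain F libraries but fell just under the minimum. c36412_g1 missed by its strain F level alone, at 35.9 and 30.8 FPKM in strain A and 0.021 FPKM in strain F on rapeseed. c19942_g1 likewise stood at 35.1 and 44.9 FPKM in strain A, then at 0.032 FPKM in strain F on rapeseed. Both were at 0 in strain F on fishmeal.

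In the library that the rule did not use, 55 of the 57 members, or 96.5%, were also listed at 0. Among the comparison IDs the share at 0 in strain F on fishmeal was 7.81% (437 of 5592). The share among comparison IDs fell with level, from 11.2% (233 of 2077) at a strain A mean of 10 to 20 FPKM to 8.41% (152 of 1808) at 20 to 50, 5.07% (36 of 710) at 50 to 100 and 1.60% (16 of 997) at 100 or more. The members' share did not fall. It was 22 of 23, 16 of 17, 8 of 8 and 9 of 9 in the same classes. The members of the highest class carry the check best, since few other IDs of that level were missed by the shallow library. Those other IDs were all above 0 in strain F on rapeseed, however. The check therefore cannot tell an ID absent from strain F from one that was low there.

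**Figure D2:**
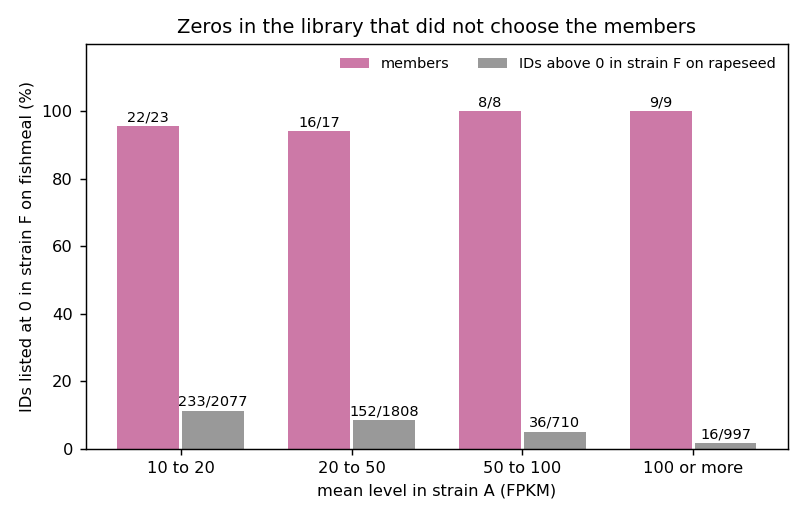
Percentage of IDs listed at 0 in strain F on fishmeal, by mean level in strain A in FPKM, for the members (pink) and the comparison IDs above 0 in strain F on rapeseed (grey); the numbers over the bars are IDs at 0 over all IDs of the class. Members were at 0 in 22 of 23 to 9 of 9 cases, and comparison IDs in 11.2% at the lowest levels and 1.60% at the highest.

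On the deposited scale the 2 exceptions differed from each other. c20986_g1, with no sibling, stood at 24.0 FPKM under fishmeal and 13.2 under rapeseed in strain A, and at 62.8 FPKM in strain F on fishmeal, above both strain A libraries. It was thus found in strain F, and only its rapeseed library lacked it. c29080_g7 stood at 18.8 and 33.1 FPKM in strain A, then at 15.1 FPKM in strain F on fishmeal, below both on that scale. The library factors on fishmeal were 0.705 for strain F and 0.993 for strain A. With them divided out, c29080_g7 was not below strain A on fishmeal, so that direction depends on the scale. In a library whose median value above 0 was 7.69 FPKM, how many reads gave 62.8 or 15.1 FPKM is not known. The other 55 were at 0 in strain F on either diet.

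Within strain A the diet folds of the members had a median and spread near those of all IDs above the minimum. The log2 fold of rapeseed over fishmeal, taken on log2(FPKM + 1), had a median of 0.07 with an SD of 0.51 over the 57 members, beside a median of 0.06 and an SD of 0.59 over all 5649 IDs above the same minimum. Both medians shift below 0 when the library factors described under processing are divided out, to -0.34 for the members and -0.35 for all. On the deposited scale 2 members were at least 2-fold higher on rapeseed, which is 3.51% against 4.74% of all 5649 IDs, and 1 was at least 2-fold lower, 1.75% against 1.89%. These shares are near the background. With the factors divided out, which moved the median of all 5649 IDs away from 0, the balance of the same 57 turned. Then 0 were higher, against 2.28% of all 5649, and 6 lower, 10.5% against 6.73%. By any amount, 45 members were then lower on rapeseed and 12 higher, in place of 22 and 35. That count was not taken over all 5649 IDs, but their median shifted as the members' did, so a downward shift is not particular to the members. The ratio of the diets was within 1.5-fold in 40 members, 70.2% against 79.1% of all. Across members the log2 levels on the 2 diets had a Pearson r of 0.93 and the levels a Spearman rho of 0.86 (57 IDs from 50 components, so not independent points).

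The 2 largest diet folds each way came from members whose strain A means were at or under the members' median of 26.7 FPKM. c38203_g3 stood at 14.9 FPKM under fishmeal and 36.1 under rapeseed in strain A, a log2 fold of 1.22. c36594_g7 stood at 10.3 FPKM under fishmeal and 22.4 under rapeseed, a log2 fold of 1.05. With the factors divided out these folds were 0.81 and 0.64, under the 2-fold limit. In the other direction, c21781_g1 stood at 28.8 FPKM under fishmeal and 10.8 under rapeseed, a log2 fold of -1.34, and of -1.73 without the factors. c30165_g3 stood at 34.7 and 18.7 FPKM, a log2 fold of -0.86, which reached -1.26 without the factors. The 5 highest members had log2 folds of 0.11 (c33007_g1), 0.58 (c35651_g6), 0.19 (c38470_g3), 0.29 (c44620_g1) and 0.34 (c32944_g2), all under 2-fold. Without the factors these were -0.32, 0.15, -0.24, -0.13 and -0.09, so the sign of 4 of them depends on the scale. The median of all 5649 IDs moved in the same way, from 0.06 to -0.35, so this change is not particular to these members.

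The 57 members came from 50 components. In 18 the member was the component's only ID, and 39 members (68.4%) had at least 1 sibling, against 50.7% of the comparison IDs. The 18 without a sibling had a median strain A level of 23.4 FPKM, with c44620_g1 the highest at a mean of 177 FPKM, and the 39 with siblings a median of 36.5 FPKM. Of the 7 members at 100 FPKM or more on both diets, 6 had siblings. Levels were not split by sibling status over the comparison IDs, so whether these differences are particular to the members is not known. The components with siblings held a median of 3 IDs and at most 10, and 5 of them held 2 or more members, 12 members in all. These members share a component and are not independent of one another.

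Most members with siblings had one that was expressed in strain F. A sibling stood at 1 FPKM or more in strain F on rapeseed for 33 of the 39, or 84.6%, against 92.7% of comparison IDs with siblings, and at 10 FPKM or more for 23, or 59.0%, against 51.5%. The first share lay below the background and the second above it. For 36 of the 39 a sibling was above 0 in strain F on rapeseed, and for 28 a sibling was above 0 in the shallow fishmeal library. No share over comparison IDs was taken for siblings above 0, so whether these counts are high or low is not known. Only 3 members, c9151_g2, c22672_g1 and c20633_g2, named after their values were seen, had siblings that were all at 0 in strain F on rapeseed. c9151_g2 was the highest of these, at 94.5 FPKM under fishmeal and 170 under rapeseed in strain A, and its sibling c9151_g1 stood at 2.22 and 3.01 FPKM. For 3 more, the highest sibling in strain F on rapeseed was above 0 but under 1 FPKM. Counting these, the 3 named above and the 18 members without a sibling, 24 of the 57 had no sibling at 1 FPKM or more there. Such a sibling was present for 33 of the 57 members and for 2626 of the 5592 comparison IDs. Lacking one was thus not more common among the members.

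c35651 shows a member listed at 0 in strain F while its component was strongly expressed there. Its members c35651_g6 (242 and 362 FPKM in strain A) and c35651_g4 (15.0 and 15.1 FPKM) were at 0 in both strain F libraries. Their sibling c35651_g2 stood at 388 FPKM under fishmeal and 494 under rapeseed in strain A, against 469 and 522 FPKM for strain F. c35651_g5 stood at 157 and 139 FPKM in strain A, against 62.6 and 107 FPKM for strain F. The members held 29.4% of the component's summed FPKM in strain A on fishmeal and 34.1% on rapeseed. c32970 had the same form. c32970_g4, at 21.4 and 12.9 FPKM in strain A, was at 0 in strain F, while c32970_g3 stood at 234 and 238 FPKM in strain A, against 107 and 211 FPKM for strain F. Another sibling, c32970_g2, stood at 23.3 and 21.1 FPKM in strain A, against 0 and 19.2 FPKM for strain F. An ID near the member's level was thus also at 0 on fishmeal, so the member's 0 there is weak evidence. In c32970 the member was 4.62% and 2.86% of the component's summed level in strain A.

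Other components with a well-expressed sibling in strain F were c36757 and c35122. c36757_g3, at 11.4 FPKM under fishmeal and 17.3 under rapeseed in strain A, has the sibling c36757_g1, which stood at 83.3 and 58.1 FPKM in strain A, against 55.4 and 105 FPKM for strain F. c35122_g2 (121 and 147 FPKM in strain A) and c35122_g4 (82.5 and 99.2 FPKM) were at 0 in both strain F libraries. Their sibling c35122_g1 stood at 88.0 and 62.8 FPKM in strain A, against 49.9 and 85.7 FPKM for strain F. Another sibling, c35122_g5, was close to the members in strain A, at 124 and 147 FPKM, but had 8.02 and 4.34 FPKM in strain F. Within one component, then, levels in strain F ran from 0 through a small share of the strain A level to a level within 2-fold of it.

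c26076 was split between the strains. The member c26076_g2 stood at 41.3 FPKM under fishmeal and 49.0 under rapeseed in strain A and at 0 in both strain F libraries. Its siblings went the other way. c26076_g1 stood at 0.139 and 0.374 FPKM in strain A, against 212 and 361 FPKM for strain F, 965 times higher in strain F on rapeseed. c26076_g3 was at 0 on fishmeal and 0.067 FPKM on rapeseed in strain A, against 121 and 156 FPKM for strain F. The member made up 99.7% of the component's summed level in strain A on fishmeal and 99.1% on rapeseed. The summed level of the component was 41.5 and 49.5 FPKM in strain A and 333 and 517 FPKM in strain F.

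c33007 held the most members, 4 of its 10 IDs. Beside c33007_g1, c33007_g9 stood at 99.9 FPKM under fishmeal and 103 under rapeseed in strain A, c33007_g5 at 37.5 and 31.0 FPKM, and c33007_g8 at 13.9 and 16.0 FPKM, all at 0 in both strain F libraries. The siblings were graded. c33007_g7 stood at 28.4 and 23.8 FPKM in strain A, at 0 in strain F on fishmeal and at 0.053 FPKM on rapeseed. c33007_g2 stood at 273 and 330 FPKM in strain A, against 10.7 and 67.0 FPKM for strain F, 4.92 times lower in strain F on rapeseed. c33007_g3 was higher in strain F, at 7.60 and 4.95 FPKM in strain A and 21.9 and 40.9 FPKM in strain F. The members held 65.1% of the summed level of the component in strain A on fishmeal and 63.4% on rapeseed, and the summed level was 918 and 995 FPKM in strain A and 32.6 and 112 FPKM in strain F. In c38470, where c38470_g2 (52.5 and 55.3 FPKM in strain A) is a member beside c38470_g3, the members held 96.7% and 97.2%. The only sibling, c38470_g1, stood at 7.63 and 7.03 FPKM in strain A, against 21.7 and 9.05 FPKM for strain F.

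**Figure D3:**
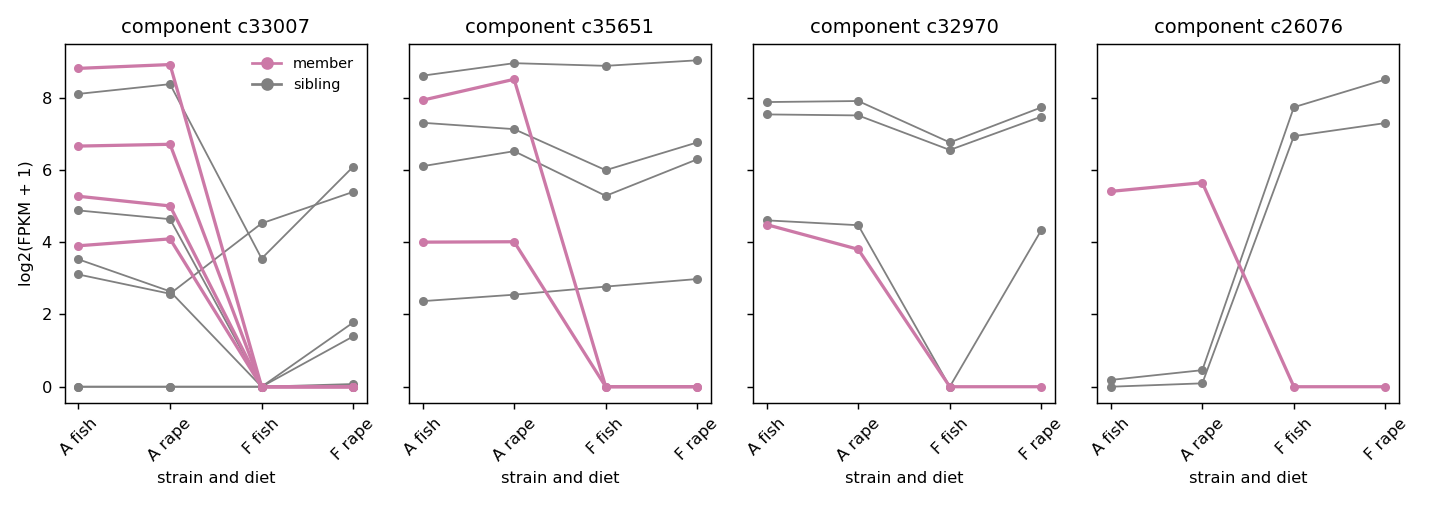
Levels as log2(FPKM + 1) of all IDs of components c33007, c35651, c32970 and c26076 in the 4 libraries (A fish and A rape, strain A on fishmeal and rapeseed; F fish and F rape, strain F), members in pink and siblings in grey, with lines that only join values of 1 ID. Members drop to 0 in both strain F libraries. The highest siblings stay high in c35651 and c32970, though c32970_g2 is at 0 in strain F on fishmeal. Siblings are graded in c33007 and appear in strain F in c26076.

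Siblings were not used by the rule, and many were themselves lower in strain F. Of the 87 siblings that are not members, 32 stood at 10 FPKM or more in both strain A libraries. On rapeseed 17 of these 32 (53.1%) were at least 2-fold lower in strain F than in strain A, against 8.94% of the comparison IDs, 14 were within 2-fold and 1 was at least 2-fold higher. The minimum in strain A leaves out siblings that were low there, which tilts this balance. Over all 87 siblings, 6 stood at 10 FPKM or more in strain F on rapeseed and at least 2-fold above strain A, among them that 1. No share over other IDs was taken for this count. Without the library factors 12 of the same 32 were 2-fold lower, or 37.5%, against 5.72% of the comparison IDs. On that scale 2 were 2-fold higher, or 6.25%, near the 5.69% of the comparison IDs. The share of comparison IDs 2-fold higher was not taken on the deposited scale. At least 10-fold lower were 10 of the 32, or 31.2%, from 9 components, against 1.11% (62 of 5592). With the factors divided out it was 9 of the same 32, or 28.1%, against 0.930%, and 8 of 21 where members and siblings were picked again on that scale. On a log2 scale the factors contribute -0.32 to any such ratio of strain F to strain A. These limits were applied to plain ratios, with no pseudocount. Sibling status overlaps with sequence, since IDs of one component can share reads, and the part this plays was not tested.

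The strongest of these siblings, picked here by their ratio, were c33204_g1, c36594_g4 and c33007_g7. c33204_g1 stood at 34.4 FPKM under fishmeal and 55.0 under rapeseed in strain A and at 0.032 FPKM in strain F on rapeseed, beside its member c33204_g2 at 44.8 and 62.6 FPKM in strain A. c36594_g4 stood at 12.5 and 26.5 FPKM in strain A, then at 0.043 FPKM in strain F on rapeseed. c25130_g2 stood at 54.2 and 52.9 FPKM in strain A, then at 0.524 FPKM in strain F on rapeseed, 101 times lower. In c38252, c38252_g1 stood at 83.8 and 93.7 FPKM in strain A, then at 3.41 FPKM in strain F on rapeseed, and c38252_g2 at 65.8, 74.2 and 4.65 FPKM. In strain F on fishmeal 9 of the 10 were at 0, and the other was c35122_g5. Of the remaining 22 siblings at that level, 3 were at 0 in that library. The 10 were picked as low in strain F and stood at 0.032 to 4.65 FPKM there on rapeseed. In the shallow fishmeal library the median value above 0 was 7.69 FPKM, so their zeros in it are a weak check. No share at 0 was taken for comparison IDs that were 10-fold lower.

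The higher share was present in components of each size, though some classes are small. At least 10-fold lower in strain F were 2 of 6 siblings in components of 2 IDs, 1 of 7 in components of 3 to 4 and 7 of 19 in components of 5 or more. Among IDs above the minimum in components without a member, the shares were 0.818% (11 of 1344), 1.22% (13 of 1062) and 3.04% (12 of 395).

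Siblings of lower level were also often at 0 in strain F on rapeseed. Of 30 siblings at 1 FPKM or more in both strain A libraries but under 10 in at least 1 of them, 11 were listed at 0 in strain F on rapeseed, or 36.7%, against 10.7% of 24003 IDs of that level outside the members' components. At a strain A mean of 3 FPKM or more the share was 7 of 25 siblings, or 28.0%, against 6.46% of the other IDs. All 11 were at 0 in strain F on fishmeal too, a weak check at this level. c22672_g3, at 7.86 FPKM under fishmeal and 16.1 under rapeseed in strain A, and c33007_g4, at 10.5 and 5.23 FPKM, were the 2 that missed the rule on 1 diet alone.

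The opposite pattern occurred in the same components. In 7 of the 32 components with siblings, or 21.9%, at least 1 ID was at 0 in both strain A libraries and at 1 FPKM or more in strain F on rapeseed, against 5.62% of 2065 other components of 2 or more IDs that hold a comparison ID. Among components of 5 or more IDs it was 5 of 10 against 15.5% (36 of 233), among those of 3 to 4 IDs 1 of 11 against 7.40% (56 of 757), and among those of 2 IDs 1 of 11 against 2.23% (24 of 1075), so 5 of the 7 were large components. The 9 such IDs were of low level, 1.63 to 8.04 FPKM in strain F on rapeseed. The highest, c36594_g9, stood at 37.0 FPKM in strain F on fishmeal and was the only one of the 9 above 0 there. c20167 is a component of 2 IDs with 1 of each kind, the member c20167_g2 at 83.8 and 84.8 FPKM in strain A and c20167_g1 at 3.21 FPKM in strain F on rapeseed.

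**Figure D4:**
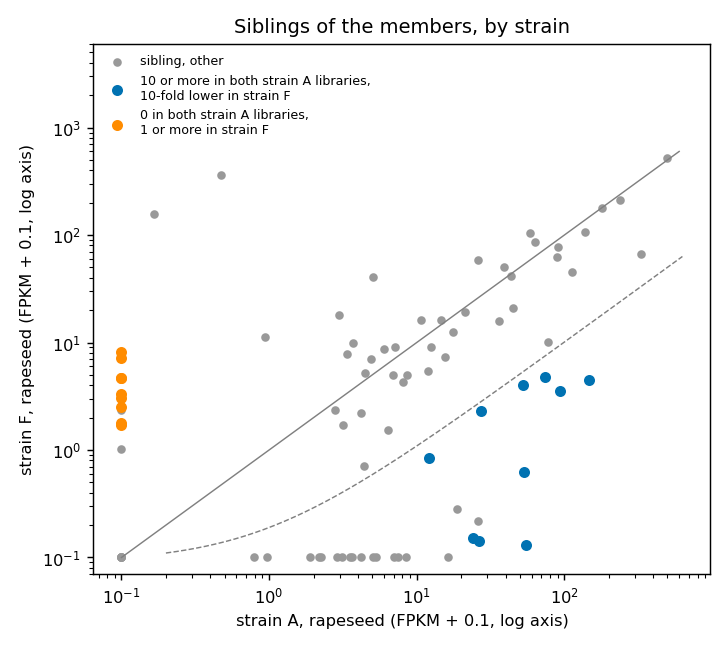
Level of each of the 87 siblings on rapeseed in strain A (horizontal) and strain F (vertical), both as FPKM + 0.1 on log axes, with the solid line at equal levels and the dashed line at a 10-fold lower level in strain F. The 10 blue points are siblings at 10 FPKM or more in both strain A libraries and 10-fold lower in strain F, and the 9 orange points are siblings at 0 in both strain A libraries and at 1.63 to 8.04 FPKM in strain F.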

How the data were processed

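Per the labels' protocols, RNA was extracted with Trizol from frozen liver and sequenced on Illumina libraries. The submitters' processing notes list Bowtie 1.0.1 and RSEM 1.2.17 but not what each was used for. As for the assembly, it was not given in the sources used here. In each table the authors deposited 1 value per ID and library with no stated unit. The values behave as FPKM that the authors had scaled by a single factor in each library before they were deposited, which no label states. All values under 3 were multiples of a fixed step to within 0.0006. For strain A the factors were 0.993 on fishmeal and 1.34 on rapeseed, and for strain F they were 0.705 and 1.07, which adds 0.43 to a log2 diet fold in strain A before the pseudocount and somewhat less after it. What the factors were meant to do is not stated. The median log2 diet fold of all 5649 IDs in strain A was 0.06 as deposited. With the factors divided out it was -0.35. The deposited scale, on which that median lay near 0, is the main one here. The diet folds and the counts of all siblings 2-fold or 10-fold lower in strain F are also given with the factors divided out. The other sibling counts in the Results, and the share of members within 1.5-fold, are on the deposited scale alone.

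Members were picked by their values as described, and all comparisons are counts, shares and folds with no test, since each group has 1 library. Log2 folds used a pseudocount of 1. The relative depth came from 2598 IDs whose values in the 3 libraries other than strain F on fishmeal, with the factors divided out, stood at 1, 2 or 3 times the lowest within 0.06 on the log2 scale. Members and lists were chosen with earlier results of these data known. IDs named are the 5 highest members, those above 0 in strain F on fishmeal, the 2 largest diet folds each way, members with the highest siblings in strain F or sharing a component, and the edges of the rule. Others were named after their values were seen. Scripts were tested on simulated data and used Python 3.11.15, numpy 2.4.6, pandas 2.3.3 and matplotlib 3.10.9.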

Additional observations from a re-analysis of the deposited data

Results flagged for a closer look

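For 2 members the strains or diets moved in opposite directions, and neither difference was tested. c29080_g7 was higher on rapeseed in strain A (18.8 to 33.1 FPKM) and at 0 on rapeseed in strain F (from 15.1 FPKM), and the log2 diet fold of strain F less that of strain A was -4.80. c20986_g1 was higher in strain F than in strain A on fishmeal (62.8 against 24.0 FPKM) and at 0 in strain F on rapeseed against 13.2 FPKM, and the log2 strain fold under rapeseed less that under fishmeal was -5.18. Both values rest on the shallow strain F fishmeal library and on a listed 0, so they depend on the pseudocount. The 0 in strain F on rapeseed was required of every member, so a lower level on rapeseed in strain F and a lower level in strain F on rapeseed were set by the choice.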

How the results depend on the processing

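The number of members followed the minimum. A minimum of 5 FPKM gave 131 members, 129 of them at 0 in strain F on fishmeal and 64 with a sibling expressed in strain F, and a minimum of 20 FPKM gave 30, 30 and 18. The share at 0 in strain F on fishmeal was 96.5% to 100% under the alternatives tried, against 4.38% to 13.2% of comparison IDs. With members picked again on values without the library factors, 46 were left, and 28 of them had a sibling expressed in strain F. The median log2 diet fold of the 46 was -0.30, and 0 were 2-fold higher and 3 lower on rapeseed. A minimum of 5 gave 3 higher and 3 lower, and one of 20 gave 0 higher and 0 lower. Shares of 2-fold diet differences over all IDs were not taken at these changed settings. Siblings 10-fold lower in strain F numbered 17 of 80 with a minimum of 5 (21.2%, against 1.04% of comparison IDs), and 6 of 32 at a 20-fold limit (18.8% against 0.662%), alternatives chosen after seeing the data. Leaving out c33007 changed no count by over 1.5 times. No paired analysis was possible because each group has 1 library and the labels give no replicate numbers.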
